A study of Mus musculus with 8 samples.

Results

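The insulin-like growth factor (IGF) genes of mouse dorsal skin were examined across cell types and after injection of PBMCsec, the secretome of irradiated human peripheral blood mononuclear cells. The group was chosen by symbol and held 9 of the 31053 genes listed: the ligands Igf1 and Igf2, the receptor Igf1r and the binding protein genes Igfbp2, Igfbp3, Igfbp4, Igfbp5, Igfbp6 and Igfbp7. Skin came from female BALB/c mice aged 14 to 16 weeks, 4 injected with PBMCsec and 4 with vehicle, with 1 single-cell 3' library per mouse. The labels name a subcutaneous injection and give neither wounding, nor time after injection, nor control solution (medium or NaCl), so these could not be told apart within the groups.

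IGF ligands are secreted peptides that bind the receptor tyrosine kinase encoded by Igf1r and drive growth and survival through the PI3K-AKT and MAPK pathways. In tissue fluids most IGF is held by binding proteins, which prolong its life, keep it from the receptor or, after cleavage by proteases such as PAPP-A, release it near the cell. In skin, mesenchymal cells are the best known source of IGF-1 for the epithelium, which responds to it and makes little of its own.

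In GRCm38, the annotation places Igfbp2 (ENSMUSG00000039323, plus strand, chr1:72824503-72852474) and Igfbp5 (ENSMUSG00000026185, minus strand, chr1:72857932-72874884) next to each other with their 3' ends facing. Igfbp3 (ENSMUSG00000020427, minus strand, chr11:7206086-7213923) and Igfbp4 (ENSMUSG00000017493, plus strand, chr11:99041244-99054392) lie on chromosome 11. Igfbp6 (ENSMUSG00000023046) lies at chr15:102144362-102149511, Igfbp7 (ENSMUSG00000036256) at chr5:77349240-77408041, Igf1 (ENSMUSG00000020053) at chr10:87858265-87937042 and Igf1r (ENSMUSG00000005533) at chr7:67952827-68233668. The exons of these 8 genes overlapped no exon of another listed gene on the same strand.

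Igf2 (ENSMUSG00000048583, minus strand, chr7:142650766-142666816) was the exception and its level could not be read. Of its 5723 exonic bases, 3596 (62.8%) and of the 500 bases at its 3' end 99.4% are also exon of the listed gene Gm49394 on the same strand. Reads there belong to both genes. Over all 26231 barcodes, Igf2 had 10 UMIs (unique molecular identifiers, each counting 1 captured RNA molecule) and Gm49394 had 0, while H19, the neighbouring imprinted RNA, had 660. Only 1 Igf2 UMI lay in the cells kept. The remaining 8 genes are described below.

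The promoters of 4 binding protein genes are shown because their transcripts were spread differently, though with overlap, over the cell types described below. Igfbp3 had its highest mean in an unnamed cluster and the next in KCs, and Igfbp4 was found in several mesenchymal and follicle populations. Igfbp5 was found in mesenchymal cells, lymphatic ECs and another unnamed cluster, and Igfbp6 mainly in FBs. Each run is the 250 bases before the RefSeq start in GRCm38.p6, 5' to 3' on the gene's strand, with capitals for the motifs searched on both strands, which were TATAAA together with the related TATATA and the longer TATTTAA (forms of the TATA box), the GC box GGGCGG and the box named CCAAT. The windows are chr11:7213924-7214173 for Igfbp3, chr11:99040994-99041243 for Igfbp4, chr1:72874866-72875115 for Igfbp5 and chr15:102143936-102144185 for Igfbp6.
Igfbp3: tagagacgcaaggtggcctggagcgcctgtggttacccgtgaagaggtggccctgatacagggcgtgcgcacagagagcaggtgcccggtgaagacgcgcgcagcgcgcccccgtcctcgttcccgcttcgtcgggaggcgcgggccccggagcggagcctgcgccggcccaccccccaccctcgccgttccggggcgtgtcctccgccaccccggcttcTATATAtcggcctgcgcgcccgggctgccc
Igfbp4: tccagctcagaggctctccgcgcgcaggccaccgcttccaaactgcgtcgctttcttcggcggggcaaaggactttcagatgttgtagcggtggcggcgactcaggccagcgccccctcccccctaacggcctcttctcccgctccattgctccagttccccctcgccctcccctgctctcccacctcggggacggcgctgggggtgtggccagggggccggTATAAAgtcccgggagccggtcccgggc
Igfbp5: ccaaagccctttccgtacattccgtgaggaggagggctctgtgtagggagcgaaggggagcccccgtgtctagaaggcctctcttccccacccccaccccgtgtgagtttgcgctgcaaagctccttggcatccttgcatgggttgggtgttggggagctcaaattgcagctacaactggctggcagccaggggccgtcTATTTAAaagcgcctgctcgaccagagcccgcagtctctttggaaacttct
Igfbp6: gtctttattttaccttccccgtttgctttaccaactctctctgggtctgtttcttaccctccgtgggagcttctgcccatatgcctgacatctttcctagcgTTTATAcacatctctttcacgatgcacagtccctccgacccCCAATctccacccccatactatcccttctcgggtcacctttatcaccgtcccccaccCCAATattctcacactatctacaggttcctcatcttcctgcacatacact

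Igfbp3 held TATATA beginning 30 bases before the start, Igfbp4 TATAAA beginning 28 bases before it and Igfbp5 TATTTAA beginning 51 bases before it. Of 32851 promoters of the same length, 5.25% held TATATA, 12.4% TATAAA and 4.18% TATTTAA. Igfbp6, with a GC content of 49.6% against 73.2% for Igfbp3 and 69.2% for Igfbp4, held 2 CCAAT matches, 107 and 50 bases before the start, and TATAAA on the other strand. CCAAT was found in 33.8% of all promoters and GGGCGG, absent from these 4 windows, in 32.7%. Of the other members, Igf1r held 2 GGGCGG matches, Igfbp7 held 4 and the first of 2 Igfbp2 promoters held 3. Distances are from the RefSeq start, which for Igfbp5 and Igfbp6 differs from the gene start in the positions given above, and they would change with it. These matches are letters in a window and were not tested for function.

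The libraries held between 14753926 and 37880651 UMIs. Requiring 500 to 4000 genes, no more than 20000 UMIs and no more than 5% mitochondrial counts left 6150 of 26231 barcodes, between 151 and 1659 per library, with median depths of 6156 to 9521 UMIs. Clustering gave 36 clusters, of which 32 were named from marker genes: fibroblasts (FBs, 1485 cells), hair follicle cells (HFs, 1281), keratinocytes (KCs, 1108), T cells (TCs, 837), dendritic cells (DCs, 359), macrophages (160), neutrophils (119), lymphatic endothelial cells (ECs, 49), smooth muscle cells (SMCs) and pericytes (38), blood ECs (34) and mast cells and basophils (27). Clusters 6, 12, 22 and 30 stayed unnamed. Member genes were left out of the genes used for clustering, but genes that vary with them were not. Levels are UMIs scaled to a class total of 1000000 (CPM), not divided by gene length, and are compared between cells and not between genes. A class mean is over the libraries with at least 5 cells of that class. Libraries shared between 0 and 10 barcodes in pairs, and at most 2 among the cells kept.

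FBs held most of the IGF transcripts of the cells kept, apart from Igf1r and Igfbp3. They held 91.4% of the Igf1 UMIs, 94.9% of the Igfbp2 UMIs, 91.8% of the Igfbp5 UMIs and 97.2% of the Igfbp6 UMIs, but 18.4% of the Igfbp3 UMIs, of which KCs held 62.0%. FBs were compared with HFs, KCs, TCs, DCs and macrophages, the other classes with at least 5 cells in all 8 libraries, by an exact two-sided sign-flip test on log2(CPM + 10) paired by library, whose smallest possible p is 0.00781. Of 40 pairs of member and class, 39 differed with an unadjusted exact p under 0.05: FBs were higher in 38 and lower in 1, Igfbp3 against KCs. After Benjamini-Hochberg adjustment over the 40 exact tests these 39 had p of at most 0.0321. The pair that did not pass was Igf1 in FBs against macrophages. The unnamed clusters belonged to none of these classes. The share of all genes that differ by this test was not counted, so these counts cannot be read as particular to the IGF genes. Against the next class in the order, which often shared only 4 to 6 libraries with it, the highest class of 0 of the 9 members passed (exact p adjusted over the members, 0.141 to 1.0). Apart from Igf2, the smallest exact p that these libraries allow was 0.0312 to 0.125, which cannot pass after this adjustment. This test therefore could not decide which class was highest. The plot of class means shows these levels for all 9 genes.

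**Figure D1:**
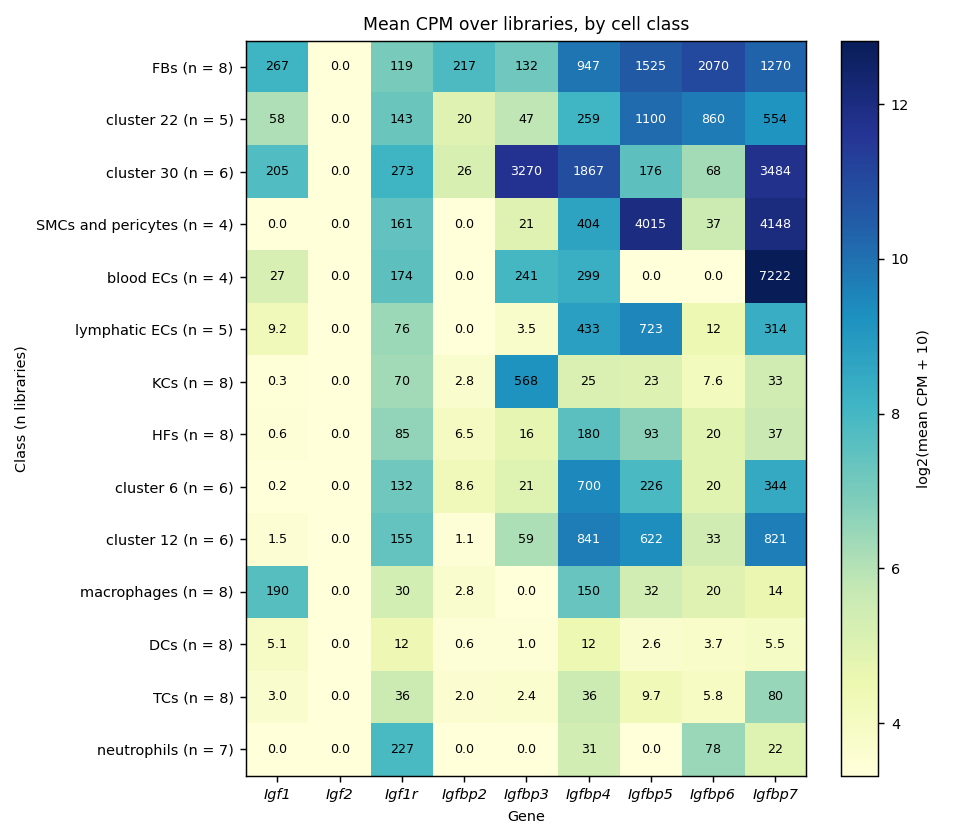
Mean CPM of each IGF gene (columns) in each cell class or unnamed cluster (rows, with the number of libraries averaged); colour is log2(mean CPM + 10) and the printed value is the mean CPM. Igf1 stood out in FBs (267), cluster 30 (205) and macrophages (190), Igfbp3 in cluster 30 (3270) and KCs (568), and Igfbp6 in FBs (2070).

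Igf1, the ligand through which growth hormone drives growth and a product of many mesenchymal cells, was a transcript of FBs, macrophages and the unnamed cluster 30, where it lay between 111 and 411 CPM (mean 205 ± 110.3, SD, n = 6). In FBs it lay between 198 and 376 CPM in the 8 libraries, around a median of 256 (mean 267 ± 50.2, SD, n = 8). In macrophages it was 332, 228, 381 and 96.5 CPM in PBMCsec libraries 1 to 4 and 58.5, 145, 119 and 158 in vehicle libraries 1 to 4. FBs were above macrophages in 6 of 8 libraries, by 0.66 ± 0.88 on the log2 scale (SD, n = 8, exact p = 0.0859), a difference within the spread between libraries. Among macrophages, 59 of 160 cells (36.9%) had an Igf1 UMI at a median depth of 5625 UMIs, against 5 of 359 DCs (1.39%) at 7998. With every cell thinned to 1000 UMIs, which left out 2 macrophages and 5 DCs, the shares were 15.2% and 0.565%.

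The epithelium held almost no Igf1. The means were 0.310 CPM in KCs and 0.624 in HFs, with 5 UMIs in each class, and FBs were higher by 4.73 ± 0.23 and 4.69 ± 0.29 on the log2(CPM + 10) scale (SD, n = 8, exact p = 0.00781 for both), the smallest p possible. The median depth of KCs was 10727 UMIs. The level of free RNA in each class was not measured. SMCs and pericytes (38 cells) and neutrophils (119 cells) had 0 Igf1 UMIs.

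Igf1r, the receptor, was the member spread most evenly over the classes. It lay at 119 ± 43.6 CPM in FBs (range 80.1 to 204), 84.9 ± 26.8 in HFs (53.2 to 136) and 69.8 ± 36.5 in KCs (26.6 to 145, SD, n = 8 each). Between 46.1% and 54.0% of the cells of these 3 classes had an Igf1r UMI, at median depths of 8997 UMIs in FBs, 9036 in HFs and 10727 in KCs. The ranges overlapped widely, and FBs were above HFs by 0.43 ± 0.47 on the log2 scale in 7 of 8 libraries (SD, n = 8, exact p = 0.0156). HFs leave out the unnamed clusters 6 and 12, although cluster 6 shares the leading genes Sfrp1, Id4, Scrg1 and Gnmt with HF cluster 16. FBs were not tested against HFs with these clusters added, so this difference holds only for HFs as named. Lower levels were found in TCs (35.7 ± 12.5 CPM), macrophages (29.6 ± 29.3) and DCs (11.5 ± 5.70, SD, n = 8 each). Small classes held more, with 227 ± 202 CPM in neutrophils (n = 7) and 273 ± 206 in cluster 30 (n = 6), but their libraries spread from 0 to 492 and from 133 to 600.1. Means above that of FBs were also found in blood ECs (174 CPM), SMCs and pericytes (161), cluster 12 (155 ± 57.9), cluster 22 (143) and cluster 6 (132 ± 19.1). Cluster 6 was above FBs in 6 of 6 libraries by 0.41 ± 0.23 on the log2 scale (SD). Its exact p was 0.0312, the smallest that 6 pairs allow, and 0.135 after adjustment within the gene.

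Igfbp6, which binds IGF-2 in preference to IGF-1, marked FBs. It lay between 1547 and 2929.7 CPM in the 8 libraries (mean 2069.7 ± 441, SD) and 1378 of 1485 FBs (92.8%) had a UMI. Every other named class lay under 80 CPM on average: 78.2 in neutrophils, 36.7 in SMCs and pericytes, 20.5 in macrophages, 19.8 in HFs, 7.60 in KCs and 5.80 in TCs. FBs were above TCs by 7.03 ± 0.19 and above KCs by 6.94 ± 0.40 on the log2 scale (SD, n = 8, exact p = 0.00781 for both). Cluster 22, unnamed, led by Mgll, Abca8a and Pmp22 and with a median depth of only 1389 UMIs, was the next at 860.1 ± 731 CPM (SD, n = 5).

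Igfbp5, a matrix-bound binding protein of mesenchymal and muscle cells, was found in FBs, in SMCs and pericytes and in lymphatic ECs. In SMCs and pericytes it was 4303, 3894 and 4546 CPM in PBMCsec libraries 1, 3 and 4 and 3318 in vehicle library 4, the libraries with at least 5 such cells. FBs ranged from 364 to 2984 CPM (mean 1525 ± 830.2, SD, n = 8). In those 4 libraries SMCs and pericytes were above FBs by 1.08 on the log2 scale in 4 of 4 (exact p = 0.125, the smallest that 4 pairs allow). ECs were split: lymphatic ECs held 304 UMIs in 49 cells (723 ± 721 CPM, SD, n = 5) and blood ECs 0 in 34 cells. Cluster 22 lay at 1099.8 ± 814 CPM (SD, n = 5).

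Igfbp7, a secreted protein of vessels that binds IGF weakly, was highest in blood ECs, where every one of 34 cells had a UMI. It was 6184, 5199 and 10469 CPM in blood ECs of PBMCsec libraries 1, 3 and 4 and 7035 in vehicle library 4. In SMCs and pericytes it was 3607, 3599, 4546 and 4841 CPM in the same libraries. Blood ECs were higher in 4 of 4 libraries by 0.76 on the log2 scale (exact p = 0.125, the smallest possible), so the order of these neighbours could not be established. The unnamed cluster 30 came next at 3484 ± 2716 CPM (SD, n = 6). It was above FBs in 6 of 6 libraries by 1.20 ± 0.74 on the log2 scale (SD, exact p = 0.0312, the smallest possible, and 0.237 after adjustment within the gene). FBs lay at 1270.5 ± 648 CPM, lymphatic ECs at 314 ± 138 (n = 5) and KCs, HFs, macrophages and DCs under 40 (SD). Cluster 12 lay at 821 ± 333 CPM (SD, n = 6), with a UMI in 88.9% of its cells.

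Igfbp4, the binding protein that PAPP-A cleaves, was spread over mesenchymal, follicle and vessel cells. Cluster 30 had the highest mean, 1867 CPM, and was above FBs in 3 of 6 libraries (0.37 ± 1.02 on the log2 scale, SD, exact p = 0.438), within the spread. Igfbp4 lay at 947 ± 378 CPM in FBs (422 to 1692, SD, n = 8), 841 ± 420.1 in cluster 12, led by Tagln, Dio3 and Acta2, and 699.6 ± 277 in cluster 6, led by Fhod3, Slc7a8 and Gnmt (SD, n = 6 each). In both unnamed clusters over 90% of the cells had an Igfbp4 UMI (92.6% and 93.3%), against 67.8% of FBs, and at 1000 UMIs per cell the shares were 60.2%, 54.6% and 37.9%. FBs and cluster 12 differed by 0.49 ± 1.05 on the log2 scale (SD, n = 6, exact p = 0.312), within the spread. Lymphatic ECs had a mean of 433 CPM and SMCs and pericytes of 404, while HFs held 179.6 ± 49.0 CPM and KCs 25.1 ± 14.8 (SD, n = 8).

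Igfbp2 was confined to few cells. Its FB mean was 217 ± 281 CPM (SD, n = 8) with a range of 0 to 854, and 123 of 1485 FBs (8.28%) had a UMI. Of the 2045 UMIs in FBs, 1097 lay in the 76 cells of cluster 29 and 802 in the 124 cells of cluster 20. Within cluster 29, 14 cells with at least 10 UMIs each held 98.9% of the UMIs and most other cells none, while in cluster 20 77 of 124 cells (62.1%) had a UMI. Blood ECs, lymphatic ECs and SMCs and pericytes had 0 Igfbp2 UMIs.

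Igfbp3, the main IGF carrier of blood plasma, was the one member with more UMIs in the epidermis than in FBs. KCs lay between 243 and 1049 CPM (mean 568 ± 335) and FBs between 34.0 and 289 (mean 132 ± 86.6, SD, n = 8), with KCs higher in 8 of 8 libraries and a log2 difference, FBs minus KCs, of -2.08 ± 1.03 (SD, exact p = 0.00781, the smallest possible). Within KCs it was concentrated in the Serpinb2 and Fosl1 cluster 14, where Igfbp3 was the third of the leading genes although it had no part in the clustering. There it was 2101, 1229.7 and 1181 CPM in PBMCsec libraries 1, 3 and 4 and 1783, 1322 and 1716 in vehicle libraries 2, 3 and 4. In cluster 3, the basal KCs led by Gnai1 and Ndufa4l2 with Krt14 among the top genes, it was 717, 204, 586, 916, 244 and 741 CPM in the same libraries. Cluster 14 was above cluster 3 in each of these 6 libraries.

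The other KC clusters held less Igfbp3. The Krt1 and Krt10 cluster 4 had a mean of 96.1 ± 99.2 CPM over 6 libraries, the Mki67 cluster 25 had 65.2 ± 67.4 and the Pthlh and Tnc cluster 15 had 0.953 ± 2.13 (SD). Cluster 15 had 3 of 11 markers of KCs and 3 of 15 of HFs and was placed among KCs by the larger share of the list. In cluster 14, 125 of 193 cells (64.8%) had a UMI and 82 cells with at least 10 UMIs held 95.1% of its Igfbp3 UMIs. Cluster 30, an unnamed population of 68 cells led by Slc26a7, Crabp1 and Wif1, held the highest class mean, with 4411, 7881 and 2266 CPM in PBMCsec libraries 1, 3 and 4 and 2521, 1963 and 577 in vehicle libraries 2, 3 and 4. It was above KCs in 6 of 6 libraries by 2.26 ± 1.47 on the log2 scale (SD, exact p = 0.0312, the smallest that 6 pairs allow, and 0.141 after adjustment over the members). Macrophages and neutrophils had 0 Igfbp3 UMIs.

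**Figure D2:**
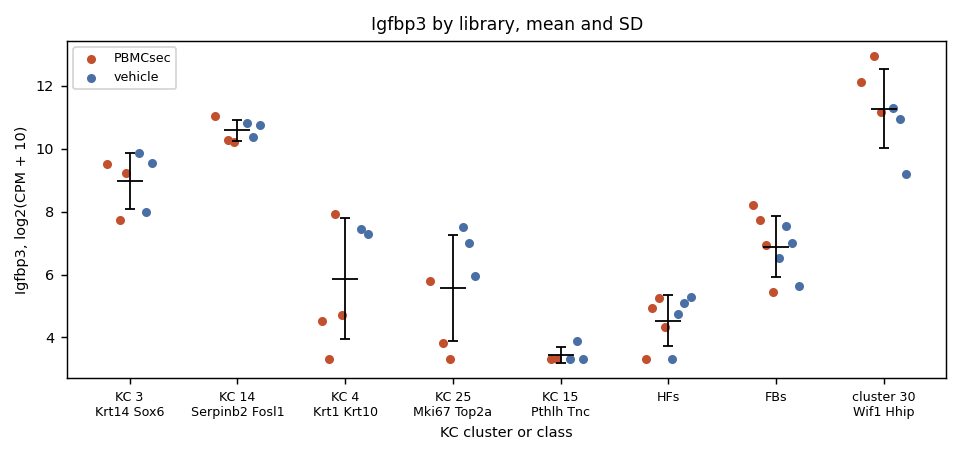
Igfbp3 as log2(CPM + 10) (vertical axis) in each library with at least 5 cells of the KC cluster or class on the horizontal axis; points are libraries coloured by treatment, bars are the mean and SD. Cluster 14 lay between 1181 and 2101 CPM and cluster 15 between 0 and 4.77 CPM.

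Pappa2, which encodes a protease of the PAPP-A family that cleaves some IGF binding proteins, was among the 10 leading genes of cluster 30. Whether it acts on the binding proteins found there was not tested. Pappa was among the leading genes of HF cluster 16. The genes whose class means followed each member most closely over 14 classes were Arap1 for Igf1 (Pearson r = 0.90), Ndst1 for Igf1r (0.93), Itgbl1 for Igfbp2 (0.97), Robo1 for Igfbp3 (0.87), Atxn2 for Igfbp4 (0.92), Lhfp for Igfbp5 (0.92), Opcml and Dcn for Igfbp6 (0.95 each) and Fermt2 for Igfbp7 (0.94), out of 7835 genes. The classes share libraries and differ in depth, so these are descriptions. Among the members, Igfbp2 and Igfbp6 were most alike over the class means (r = 0.83), followed by Igfbp4 and Igfbp7 (0.78). Within FBs, Igfbp2 and Igfbp6 were spread differently. FB clusters 0 and 26 had means of 3466 and 3682 CPM of Igfbp6 but 2.59 and 0 of Igfbp2. Cluster 20 had 279 CPM of Igfbp6 and 887 of Igfbp2, while cluster 29 held both (1029 and 1215). Igf1 and Igf1r had r = 0.09.

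The 7 FB clusters divided the family. Igf1 was highest in cluster 10, led by Mgp, Hmcn2 and Angptl1, where it lay between 338 and 1059 CPM (mean 666 ± 247, SD, n = 7) and 201 of 236 cells (85.2%) had a UMI, followed by cluster 8, led by Adamts18, Peg3 and Hpgd (483 ± 192, n = 6). The difference between the 2 was 0.43 ± 0.46 on the log2 scale (SD, n = 6, exact p = 0.0938). Cluster 0, led by Mrgprg, Smpd3 and Pla1a and the largest with 462 cells, held 63.7 ± 58.2 CPM (SD, n = 8). It lay below cluster 10 in 7 of 7 libraries, with a log2 difference, cluster 0 minus cluster 10, of -3.35 ± 1.57 (SD, exact p = 0.0156, the smallest that 7 pairs allow).

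Cluster 0, low in Igf1, was high in Igfbp5 and Igfbp6. In cluster 0 Igfbp5 had a mean of 2622 ± 1332 CPM and Igfbp6 of 3466 ± 984 (SD, n = 8), and in cluster 26, led by Ptx3, Ccl2 and Cxcl1, they had 3358 ± 1058 and 3682 ± 1783 (SD, n = 5). Cluster 10 held 811 ± 469.6 CPM of Igfbp5 and 1404 ± 609 of Igfbp6 (SD, n = 7). For Igfbp5, cluster 0 was above cluster 10 in 7 of 7 libraries by 2.09 ± 1.32 on the log2 scale (SD, exact p = 0.0156, the smallest possible). Cluster 20 was low in all 3 of these genes, with 50.8 CPM of Igf1, 286 of Igfbp5 and 279 of Igfbp6. Igf1r had means between 91.5 and 142 CPM in the 7 clusters. Over 48 exact tests between the FB clusters found in at least 6 libraries, 0 passed after Benjamini-Hochberg adjustment (smallest adjusted p = 0.0833).

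Igfbp7 and Igfbp4 were highest in cluster 20, led by Ednrb, Col11a1 and Lrrc15. Igfbp7 lay there between 2583 and 8217 CPM (mean 4838 ± 2197, SD, n = 5), against 2141 ± 496 in cluster 8 (SD, n = 6), 362 ± 285 in cluster 0 and 122 ± 59.2 in cluster 26 (SD, n = 8 and 5). It was above cluster 8 in 5 of 5 libraries by 1.16 on the log2 scale (exact p = 0.0625, the smallest that 5 pairs allow). Igfbp4 had means of 2302 ± 1469.8 CPM in cluster 20 and 2179 ± 1527 in cluster 8 (SD, n = 5 and 6), which did not differ beyond their spread.

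Cluster 29, led by Cpz, Mfap4 and Col1a1, carried a different set. It held Igfbp5 at 3925 ± 798 CPM and Igfbp2 at 1215 ± 882, but Igfbp4 at 11.4 ± 7.36 and Igfbp3 at 5.94 ± 11.8 (SD, n = 5). Its 5 libraries lay between 0 and 18.6 CPM for Igfbp4, while the lowest Igfbp4 value in a library of any other FB cluster was 66.5. Igfbp2 in this cluster was 1555, 1297 and 2412 CPM in PBMCsec libraries 1, 3 and 4 and 758 and 53.7 in vehicle libraries 3 and 4. Cluster 29 thus had high means of both Igfbp2 and Igfbp5, neighbours on chromosome 1, although only 18 of its 76 cells had an Igfbp2 UMI. Cluster 20 had 887 ± 786 CPM of Igfbp2 with 286 ± 388 of Igfbp5, and cluster 26 had 0 Igfbp2 UMIs with 3358 CPM of Igfbp5.

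**Figure D3:**
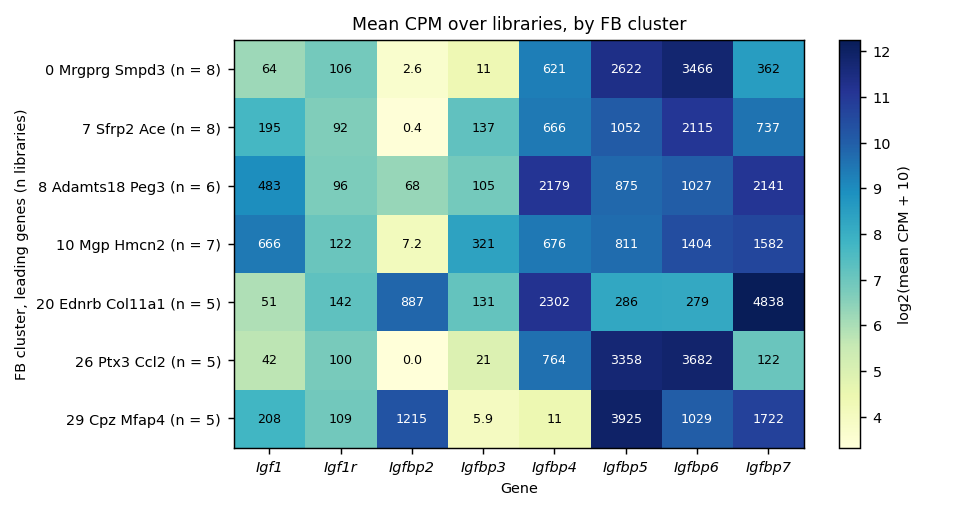
Mean CPM of 8 IGF genes (columns) in the 7 FB clusters (rows, with leading genes and the number of libraries averaged); colour is log2(mean CPM + 10). Igf1 is highest in cluster 10 (666), Igfbp4 and Igfbp7 in cluster 20 (2302 and 4838), and Igfbp4 is nearly absent from cluster 29 (11).

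The second question was whether the family changed after PBMCsec. The UMIs of each class were added up within a library, and edgeR was run on all genes with enough counts. For each class, the library with the fewest cells held 22 (FBs), 10 (KCs), 13 (HFs), 54 (TCs) and 15 (DCs and macrophages). From here to the end, the CPM of a class are scaled by edgeR's TMM factors and therefore differ from the levels above for the same libraries, while those of single clusters and of summed FB markers stay scaled to the total. In FBs, edgeR called 0 of 9414 genes at an adjusted p under 0.05 (0%), as did DESeq2, and 214 (2.27%) had an unadjusted p under 0.05. Of the 9 members 8 were tested and 0 called, and 0 had an unadjusted p under 0.05. The CPM of the 2 groups overlapped for each of the 8, while they did not for 1.58% of all genes tested. Their log2 fold changes ranged from -0.61 to 0.74 with a median of 0.23, against 0.00 for all genes tested, with 6 higher and 2 lower after PBMCsec. In bulk sums of a class, a change in the mix of its clusters and a change per cell cannot be told apart.

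Igf1 in FBs was 283, 251, 278 and 272 CPM in PBMCsec libraries 1 to 4 and 244, 209, 358 and 256 in vehicle libraries 1 to 4. The groups overlapped and the log2 fold change was 0.01 ± 0.21 (SE, n = 4 per group, edgeR adjusted p = 1.0). Igfbp7 was 1315, 2473, 810.3 and 1708 CPM after PBMCsec and 331, 744, 1456 and 1490.1 after vehicle (0.63 ± 0.43, SE, edgeR adjusted p = 1.0). Igfbp3, with 299, 207, 115 and 36.0 CPM against 78.5, 186, 113 and 39.6, had a log2 fold change of 0.74 ± 0.57 (SE). Leaving out single libraries moved Igfbp3 between 0.26 (without PBMCsec library 1) and 1.08 (without PBMCsec library 4), Igfbp7 between 0.34 and 0.89, Igf1r between -0.59 and -0.13 and Igfbp6 between 0.03 and 0.36. For Igf1r the log2 fold change was -0.39 ± 0.29, for Igfbp4 0.24 ± 0.36, for Igfbp5 0.29 ± 0.47 and for Igfbp6 0.22 ± 0.23 (SE, edgeR unadjusted p between 0.169 and 0.973 for all 8).

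Igfbp2 in FBs rested on 1 library. It was 135, 18.2, 128 and 399 CPM after PBMCsec and 0, 901, 99.5 and 129 after vehicle, for a log2 fold change of -0.61 ± 0.99 (SE, edgeR adjusted p = 1.0). Of the Igfbp2 UMIs of FBs in vehicle library 2, 154 came from 2 cells of cluster 29. Without that library the value was 1.0, and without cluster 29 it was 0.37.

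**Figure D4:**
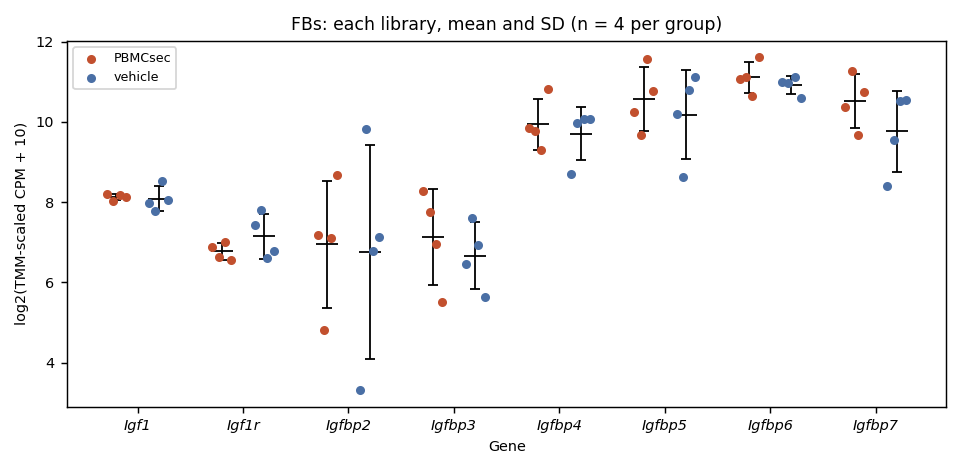
log2(TMM-scaled CPM + 10) of 8 IGF genes in FBs (vertical axis) in each of 4 PBMCsec and 4 vehicle libraries; points are libraries, bars the mean and SD. The groups overlap for each gene, and Igfbp2 ranges from 0 CPM to 901 CPM among the vehicle libraries.

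In DCs and macrophages, tested as 1 class, edgeR called 0 of 5602 genes (0%) and DESeq2 7 (0.125%), none of them a member, and 257 genes (4.59%) had an unadjusted p under 0.05 by edgeR, 153 (2.73%) of them higher after PBMCsec. Only 2 members had enough counts, Igf1 and Igfbp4, and both were among the latter. Igf1 was 135, 78.7, 77.4 and 37.0 CPM in PBMCsec libraries 1 to 4 and 11.7, 36.4, 32.4 and 38.2 in vehicle libraries 1 to 4. PBMCsec libraries 1 to 3 lay above every vehicle library and library 4 within them. The log2 fold change was 1.47 ± 0.42 (SE, n = 4 per group, edgeR p = 0.00344, adjusted p = 0.682), and the exact permutation p of the CPM was 0.0571. Igfbp4 was 106, 32.8, 94.0 and 51.8 CPM after PBMCsec and 11.7, 18.2, 32.4 and 49.9 after vehicle (1.26 ± 0.43, SE, edgeR adjusted p = 0.961, exact permutation p of the CPM = 0.0571). Neither passed the adjusted threshold, and without a filter on low counts, where edgeR called 104 of 14851 genes (0.700%), both did, with edgeR adjusted p of 0.00601 and 0.0416. Over all alternatives the adjusted p of Igf1 ran from 0.00601 to 1.0 and that of Igfbp4 from 0.0416 to 1.0.

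Macrophages held 227 of the 247 Igf1 UMIs and 198 of the 238 Igfbp4 UMIs of this class. They made up 33.8%, 38.2%, 26.6% and 40.0% of it in PBMCsec libraries 1 to 4. In vehicle libraries 1 to 4 they made up 26.1%, 40.0%, 26.7% and 25.9%, with only 6 macrophages and 9 DCs in vehicle library 2. The part of this share in the values of the pooled class was not tested. In macrophages alone, the log2 fold change was 1.17 ± 0.47 for Igf1 (SE, edgeR adjusted p = 0.984) and 1.62 ± 0.59 for Igfbp4 (edgeR adjusted p = 0.972). Cells with an Igf1 UMI made up 25% to 61.5% of macrophages after PBMCsec and 17.9% to 33.3% after vehicle, with only 6 macrophages each in vehicle libraries 1 and 2. Median depths were 4912 to 9131 UMIs after PBMCsec and 4173 to 6202 after vehicle, and with cells thinned to 1000 UMIs the shares were 9.38% to 31.2% and 0% to 21.4%, which overlapped. The summed level of 7 FB markers in the whole class was 86.7 to 348 CPM after PBMCsec and 47.3 to 206 after vehicle, with 0 to 1 and 0 to 3 of the markers at 0, against at least 41462 in FBs. In macrophages alone it was 1429.6 CPM in PBMCsec library 3 and 60.7 to 181 in the other libraries. Its part in the result was not tested, and without that library the log2 fold changes in DCs and macrophages together were 1.49 for Igf1 and 1.09 for Igfbp4. The difference between DCs and macrophages and FBs in the effect on Igf1 (1.17 against 0.05 on the log2(CPM + 10) scale) had an exact permutation p of 0.0857.

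In TCs, edgeR called 0 of 4745 genes (0%), DESeq2 3 (0.0632%) and none of them a member, and 180 genes (3.79%) had an unadjusted p under 0.05 by edgeR. Igf1r was 19.5, 24.0, 42.3 and 28.6 CPM in PBMCsec libraries 1 to 4 and 54.6, 47.0, 45.5 and 44.6 in vehicle libraries 1 to 4. The groups did not overlap, which in this direction held for 1.20% of the genes tested, and the log2 fold change was -0.72 ± 0.30 (SE, n = 4 per group, edgeR p = 0.0307, adjusted p = 1.0, exact permutation p = 0.0286). Blocking on the number of the library, edgeR called 7 genes (0.148%) and none of them a member. Igfbp4 had too few counts to be tested, with 17.6, 20, 16.9 and 17.9 CPM after PBMCsec and 92.2, 23.5, 31.3 and 85.7 after vehicle, and these groups did not overlap either (exact permutation p = 0.0286, the smallest that 4 against 4 allow). Paired by library number, both genes were lower in 4 of 4 pairs, for an exact sign-flip p of 0.125 each, the smallest that 4 pairs allow. Without a filter on low counts, where edgeR called 46 of 14661 genes (0.314%), its log2 fold change was -1.56 ± 0.37 (SE, edgeR adjusted p = 0.0107).

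Most Igfbp4 UMIs of TCs lay in cluster 28, whose leading genes were Csf2, Arg1 and Il13. It was placed among TCs on 3 of 12 markers, with Il1rl1, Areg and Klrg1 among its top genes. It held 70 of the 104 Igfbp4 UMIs and 18 of the 114 Igf1r UMIs of TCs in 89 of 837 cells, while clusters 27 and 31, led by Trdc among other genes, held 45 and 30 Igf1r UMIs. Its share of TCs was 6.67%, 5.15%, 8.63% and 4.40% in PBMCsec libraries 1 to 4 and 26.3%, 7.41%, 10% and 24.0% in vehicle libraries 1 to 4, highest in the 2 vehicle libraries with the most Igfbp4. Within cluster 28, Igfbp4 was 91.3, 44.4, 166 and 0 CPM after PBMCsec and 263, 166, 143 and 323 after vehicle. Igf1r there was 0, 0, 18.4 and 0 CPM against 100, 55.4, 0 and 98.4. These levels rest on 4 to 23 cells per library, and their part beside the share was not tested. Without cluster 28 and scaled to the class total, Igfbp4 was 11.3, 15.5, 1.74 and 16.7 CPM after PBMCsec and 27.4, 3.47, 15.4 and 7.99 after vehicle (exact permutation p = 0.771), and Igf1r was 18.9, 23.2, 41.7 and 26.8 against 36.6, 41.6, 49.3 and 24.0 (exact permutation p = 0.257). The groups then overlapped for both genes, and the log2 fold change of Igf1r was -0.40 ± 0.34 (SE, edgeR adjusted p = 1.0). Cluster 28 was left out after levels were seen and with it most Igfbp4 UMIs. Few were left per library, so the overlap in Igfbp4 decides nothing about the cause, which was not tested. Igfbp7, which lay at 178 CPM in TC cluster 9 (led by Ctla4, Areg and Icos) against 53.7 in cluster 5 (Ms4a4b, Trac and Ms4a6b), had overlapping groups and a log2 fold change of 0.33 ± 0.53 in TCs (SE, edgeR adjusted p = 1.0).

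In HFs, edgeR and DESeq2 called 0 of 9215 genes (0%), and 328 (3.56%) had an unadjusted p under 0.05 by edgeR. Of 6 members tested 1 was among these, Igfbp5, with a log2 fold change of 3.76 ± 1.41 (SE, n = 4 per group, edgeR p = 0.0196, adjusted p = 1.0, exact permutation p = 0.229). It was 8.96, 723, 56.0 and 1.98 CPM in PBMCsec libraries 1 to 4 and 0, 2.79, 24.0 and 3.36 in vehicle libraries 1 to 4. The groups overlapped and 1 library stood apart, in which 186 UMIs came from 3 of the 10 cells of cluster 2, the inner root sheath cells led by Krt25, Krt71 and Tchh. Without this library the value was 0.94. The same library also had the highest Igfbp5 in cluster 12, with 3560.3 CPM in 5 cells against 13.0 to 82.5. In cluster 6 it had 1271 CPM in 9 cells against 0 to 59.3, and in KCs 154 CPM against 0 to 12.5. In all libraries 6 of the 320 cells of cluster 2 had at least 10 Igfbp5 UMIs and these held 92.6% of its Igfbp5 UMIs, with 2 such cells in PBMCsec library 3 and 1 in vehicle library 3. The summed level of the 7 FB markers in HFs was 246 CPM in PBMCsec library 2, 126 to 188 in the other PBMCsec libraries and 26.6 to 306 after vehicle, and its part in the result was not tested.

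In KCs, edgeR called 0 of 8617 genes (0%), DESeq2 3 (0.0348%) and none of them a member, and 63 (0.731%) had an unadjusted p under 0.05 by edgeR, with no member among them. Igfbp3, the member with the most UMIs in KCs, was 1088, 256, 366 and 268 CPM in PBMCsec libraries 1 to 4 and 737, 1072, 305 and 544 in vehicle libraries 1 to 4. The groups overlapped, with a log2 fold change of -0.40 ± 0.48 (SE, edgeR adjusted p = 1.0), which was -1.13 without PBMCsec library 1 and -0.04 without vehicle library 2. The other 4 members tested had log2 fold changes of 0.02 (Igfbp4), -0.31 (Igf1r), 0.42 (Igfbp7) and 1.97 (Igfbp5). Igfbp5 was 8.88, 154, 4.99 and 12.5 CPM in PBMCsec libraries 1 to 4 and 0, 0, 10.9 and 1.90 in vehicle libraries 1 to 4. Over the 5 classes, 26 differences between 2 classes in the effect on a member were tested by exact permutation, and 0 had an unadjusted p under 0.05.

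**Figure D5:**
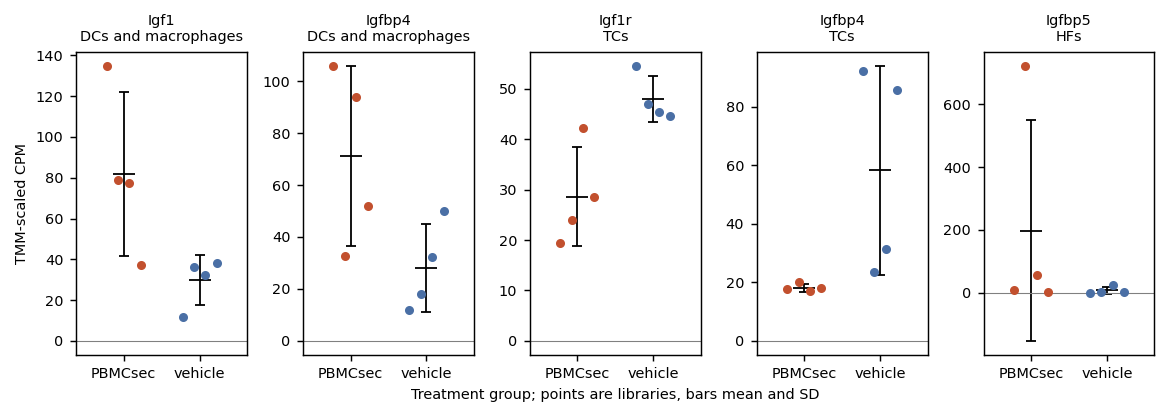
TMM-scaled CPM (vertical axes, linear, each from its own scale) of Igf1 and Igfbp4 in DCs and macrophages, Igf1r and Igfbp4 in TCs and Igfbp5 in HFs; points are the 4 PBMCsec and 4 vehicle libraries, bars the mean and SD. The groups overlap for Igf1, Igfbp4 of DCs and macrophages and Igfbp5, and do not overlap for the 2 genes of TCs before cluster 28 is left out.

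The 48 other genes of the IGF pathway followed the same picture. In FBs 36 were tested, 18 higher and 18 lower after PBMCsec, with a median log2 fold change of -0.01, and 0 were called. Only Grb10, an adaptor that inhibits insulin and IGF receptor signalling, had an unadjusted p under 0.05. It was 243, 145, 226 and 176 CPM after PBMCsec and 587, 424, 234 and 199 after vehicle, for a log2 fold change of -0.83 ± 0.33 (SE, n = 4 per group, edgeR p = 0.0274, adjusted p = 1.0, exact permutation p = 0.143). The groups overlapped, and without vehicle library 1 the value was -0.48. Vehicle libraries 1 and 2, the highest, held only 28 and 22 FBs, against 69 to 520 in the other libraries. In HFs 30 were tested and Gab1, a docking protein of receptor tyrosine kinases, was 28.7, 26.9, 28.8 and 25.7 CPM after PBMCsec and 73.1, 30.7, 45.2 and 51.0 after vehicle (log2 fold change -0.77 ± 0.25, SE, edgeR p = 0.00833, adjusted p = 1.0, exact permutation p = 0.0286). The groups did not overlap, which in this direction held for 0.901% of the genes tested.

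In DCs and macrophages 21 pathway genes were tested and Cd93, a cell surface protein of endothelial and myeloid cells known to bind IGFBP7, was 46.0, 102, 33.2 and 55.4 CPM after PBMCsec and 23.5, 9.10, 32.4 and 29.4 after vehicle. PBMCsec libraries lay above vehicle libraries, as for 1.50% of the genes tested, with a log2 fold change of 1.06 ± 0.40 (SE, edgeR p = 0.0191, adjusted p = 0.976, exact permutation p = 0.0286). Akt1, the kinase downstream of PI3K, went the other way without overlap, with 73.3, 102, 84.0 and 105 CPM after PBMCsec and 106, 173, 118 and 112 after vehicle (log2 fold change -0.44 ± 0.24, SE, edgeR adjusted p = 1.0, exact permutation p = 0.0286). In this direction 1.21% of the genes tested did not overlap. In KCs (28 tested) and TCs (18 tested), 0 pathway genes had an unadjusted p under 0.05, and edgeR called 0 in all 5 classes, as did DESeq2. By list, 0 of the 4 genes for RNA binding and the imprinted locus, Igf2bp1, Igf2bp2, Igf2bp3 and H19, had enough counts in any class, and Igfbp1 had 0 UMIs in every library.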

How the data were processed

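The files the authors deposited hold raw UMI counts for each gene and cell barcode of 8 libraries, made with 10x Genomics Cell Ranger against mm10 (version 3.0.2 per the file headers). The study's filter on genes, UMIs and mitochondrial counts was applied, and its 3 noise genes (Gm42418, Gm17056 and Gm26917) were dropped. Libraries were integrated in Seurat 5.3.0 (R 4.3.3, 2000 variable features without the IGF genes, 30 dimensions, resolution 1). A cluster took the class of its markers where at least 3 of them reached 2-fold and 25% of its cells. Clusters with contractile genes needed 3 muscle markers besides Acta2, Tagln and Mylk, a rule set after the clusters were seen. Scrublet in scanpy 1.11.5 called 18 cells (0.293%) as doublets, too few to rely on, and none were removed. Intervals and zeros cover counting error only.

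PBMCsec was compared with vehicle on UMIs summed by library, in classes with no fewer than 10 cells in any library and with DCs and macrophages pooled. The quasi-likelihood test of edgeR 4.0.16 was used after TMM scaling and filterByExpr, with p adjusted over all genes tested by Benjamini-Hochberg. DESeq2 1.42.0 was the alternative. Levels in cell classes were compared by two-sided exact sign-flip tests and single values by two-sided exact permutation of the 70 labellings. P-values measure the spread between libraries. The comparison of FBs with every class, the leaving out of single clusters, macrophages alone and the paired test in TCs were added after levels were seen. The paired test was run in TCs alone, where the deviations of same-numbered PBMCsec and vehicle libraries correlated with r of 0.35, 0.18, 0.14 and 0.41. In DCs and macrophages these were 0.32, 0.09, 0.28 and 0.29, so the number in the labels did not set TCs apart. Scripts were tested on simulated data. The rule named all members, pathway genes with an unadjusted p under 0.05, the genes most alike over classes and the leading genes of clusters. Other genes named, such as Pappa, were picked with their values in view. The members and lists were chosen with earlier results of these data known. Positions came from GENCODE M21 and promoters from RefSeq (GRCm38.p6), which held all 9 members.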

Additional observations from a re-analysis of the deposited data

Results flagged for a closer look

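The CPM below are scaled by TMM. Of 46 sets of 4 libraries of a treatment, class and member, 9 held a library set apart from the other 3 by Dixon's test. For normally distributed values chance does this in about 1 of 20 sets. The CPM were not checked for this and some rest on few UMIs or cells, so 9 cannot be read as an excess. In FBs, vehicle library 2 had the highest Igfbp2 (901 CPM) and vehicle library 1 the lowest Igfbp4 (409 CPM). In KCs, PBMCsec library 2 stood apart for Igfbp5 (154 CPM), PBMCsec library 4 for Igfbp7 (89.0 CPM) and PBMCsec library 1 for Igfbp3 (1088 CPM), each the highest of its group. In HFs, PBMCsec library 2 was highest for both Igfbp5 (723 CPM) and Igfbp6 (46.2 CPM), vehicle library 3 was highest for Igfbp5 (24.0 CPM) and PBMCsec library 1 was lowest for Igfbp7 (30.4 CPM).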

How the results depend on the processing

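Of 134 recounts of members called or of classes told apart, 132 stayed within 1.5 times the main count. The main count was 0 in each case but the FB pairs with other classes, so most recounts compared 0 with 0. For the highest class and the highest FB cluster, the libraries shared in the main setting were too few for any other count. Those recounts are therefore no sign of stability. Without a filter on low counts, edgeR called 1 member in TCs (Igfbp4) and 2 in DCs and macrophages (Igf1 and Igfbp4) in place of 0, and the cause was not tested. Of the log2 fold changes of 16 combinations of gene and class, none of which passed the adjusted threshold, 26 of 351 alternatives turned the sign.

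Igf1 in FBs (0.01) was -0.02 by DESeq2, -0.00 with DESeq2 size factors, -0.06 scaled to the total alone, -0.16 in libraries 3 and 4 alone, -0.04 with classes by markers, -0.05 without the 5% highest Scrublet scores, -0.26, -0.04, -0.05 and -0.03 without FB clusters 0, 7, 20 and 29, and -0.08 to 0.20 without single libraries. In libraries 3 and 4 alone, Igf1r in FBs was 0.15, Igfbp2 1.20 and Igfbp7 -0.23. With 10% mitochondrial counts and classes by markers, Igfbp3 in FBs was -0.06, Igfbp5 in HFs -0.19 and Igf1r in TCs 0.21. Without cluster 29, Igfbp2 in FBs was 0.37. Without single libraries, Igfbp2 in FBs ran from -1.42 to 1.0, Igfbp4 from -0.14 to 0.44 and Igfbp5 from -0.14 to 0.61. The causes were not tested.

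With the replicate block Igfbp2 in FBs was 0.37, and 0 members were called in any class. Over all genes the block moved the calls from 0 to 1 in HFs, 7 in TCs and 5 in DCs and macrophages. Same-numbered libraries correlated with r of -0.00 to 0.23 in FBs, -0.07 to 0.40 in KCs, 0.05 to 0.40 in HFs and 0.09 to 0.32 in DCs and macrophages. The blocked log2 fold change of Igf1r in TCs was -0.74 (edgeR adjusted p = 0.681).

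The FB pairs told apart numbered 38 to 39 without single libraries and 37 with cells thinned to 1000 UMIs. Igf2, blood ECs and other small classes were limited by counts and cells.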

Other observations

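Within TCs the receptor was uneven. Igf1r was found at 118 CPM (95% Poisson interval 86.4 to 159, counting error only) in cluster 27, led by Blk and Trdc, and at 149 CPM (100.4 to 212) in cluster 31, led by Trdc, Cd7 and Tcrg-C1. It lay at 3.84 CPM (1.05 to 9.82) in cluster 9, led by Ctla4, Areg and Icos, and at 17.6 CPM (10 to 28.5) in cluster 5, led by Ms4a4b and Trac. Trdc encodes the constant region of the delta T cell receptor chain. Mast cells and basophils, 27 cells with 22 Igf1r UMIs, held 286 CPM (179 to 433).

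The follicle clusters differed in Igfbp4. It lay at 339 CPM (311 to 369) in cluster 16, led by Nppc, Scrg1 and Id4, and at 279 CPM (261 to 298) in cluster 1, led by Sostdc1, Ccl27a and Aldh3a1, against 10.4 CPM (6.51 to 15.7) in cluster 13, led by Krt6a, Rnase12 and Wfdc18. These values were read after the clusters were seen and were not tested over libraries.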
